A study of Mus musculus with 4 samples.

Results

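Cytosolic ribosomal protein genes were taken from the deposited expression table as every row whose gene symbol begins with Rpl or Rps followed by a digit, leaving out the S6 kinases (Rps6k) and symbols of pseudogenes (-ps). The rule found 79 of 14226 rows, 46 named for proteins of the large subunit (Rpl) and 33 for proteins of the small subunit (Rps). It used names only and no measured value. RNA sequencing had been done on splenocytes, the mixed cell suspension of a whole mouse spleen, from 4 C57BL/6N samples. In 2 of them the mice were wild type, and in 2 they carried the vcS5 transgene (genotype vcS5 +/T, named line1 in the library names). The series title names an activating STAT5 mutation and peripheral T-cell lymphoma, so the comparison asks how the spleen transcriptome of the transgenic mice differs from that of wild type. Age, sex, the promoter that drives the transgene and the number of founder lines are not given in the sources used here. The samples of each group are called biological replicates. The limma p-values rest on the spread between these samples, with the estimate for each row drawn towards that of rows of like level. The authors' q-values come from their own comparison.

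The cytosolic ribosome translates messenger RNA into protein. Its small subunit reads the message and its large subunit joins amino acids, and each is built in the nucleolus from ribosomal RNA and its own set of proteins. Nearly all of these proteins are needed in equal numbers per particle, and their genes are active in every dividing cell. Their messages begin with a run of pyrimidines at the cap, the 5′ terminal oligopyrimidine (TOP) motif, through which the growth kinase mTOR and the RNA-binding protein LARP1 set how well they are translated. A growing lymphocyte makes more ribosomes than a resting one. Expression tables such as this one measure the messages, and neither their translation nor the number of ribosomes.

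The TOP motif was looked for in the RefSeq promoter table of build GRCm38.p6, which gives 250 bases before and 50 bases after each annotated start and matched 59 of the 79 genes. A run of at least 5 C or T letters that covered the start, or began within 5 bases of it, was present in 29 of the 59 (49.15%), against 26.96% of the 27025 genes in the promoter table. The letters CCGGAAG, read by ETS family factors, stood on either strand of the 300-base window in 24 of the 59 (40.68%, against 9.93% of all genes). AAGATGG, read by YY1, stood on either strand in 10 of them (16.95%, against 7.28%). The reverse complement of CCGGAAG begins with a run of C and T letters, so a match on that strand can be counted in both searches. A match is a description of letters and not of a bound factor.

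The start windows below show the 25 bases before and the 15 bases from the annotated start, 5′ to 3′ on the gene's strand, with the C and T run in capitals. Rps10 (chr17:27635230-27635269, minus strand), Rpl38 (chr11:114668555-114668594, plus), Rps18 (chr17:33955651-33955690, minus) and Rps6 (chr4:86857353-86857392, minus) are shown because their differences between groups were among the larger ones. Rps27 (chr3:90213634-90213673, minus) is shown as the second most abundant of the 79, and Rpl28 (chr7:4792940-4792979, plus) because it has such a run and a small difference. Rps19bp1 (chr15:80264292-80264331, minus) and Rpl7l1 (chr17:46782642-46782681, minus) have no such run. These 8 were chosen after their values were seen.
Rps10: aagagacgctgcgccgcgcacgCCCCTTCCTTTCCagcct
Rpl38: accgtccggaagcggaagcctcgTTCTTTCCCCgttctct
Rps18: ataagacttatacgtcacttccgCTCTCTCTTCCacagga
Rps6: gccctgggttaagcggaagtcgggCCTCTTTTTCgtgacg
Rps27: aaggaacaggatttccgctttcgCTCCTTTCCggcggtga
Rpl28: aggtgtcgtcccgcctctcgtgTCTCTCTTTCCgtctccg
Rps19bp1: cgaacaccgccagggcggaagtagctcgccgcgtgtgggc
Rpl7l1: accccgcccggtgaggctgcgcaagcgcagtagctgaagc

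Ribosomal protein messages were among the most abundant in every library. Levels are FPKM, read fragments scaled to the length of the transcript and to the size of the library, so that genes can be compared with each other. Of the 79 rows, 74 had a mean of at least 100 FPKM over the 4 libraries, a level that 1064 of all 14226 rows reached, and 31 of the 100 most abundant rows were ribosomal protein rows. The median over the 79 was 733 and 833 FPKM in wild-type replicates 1 and 2 and 1054 and 1129 FPKM in vcS5 replicates 1 and 2. The median over all rows was between 12.2 and 12.6 FPKM in all 4 libraries.

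**Figure D1:**
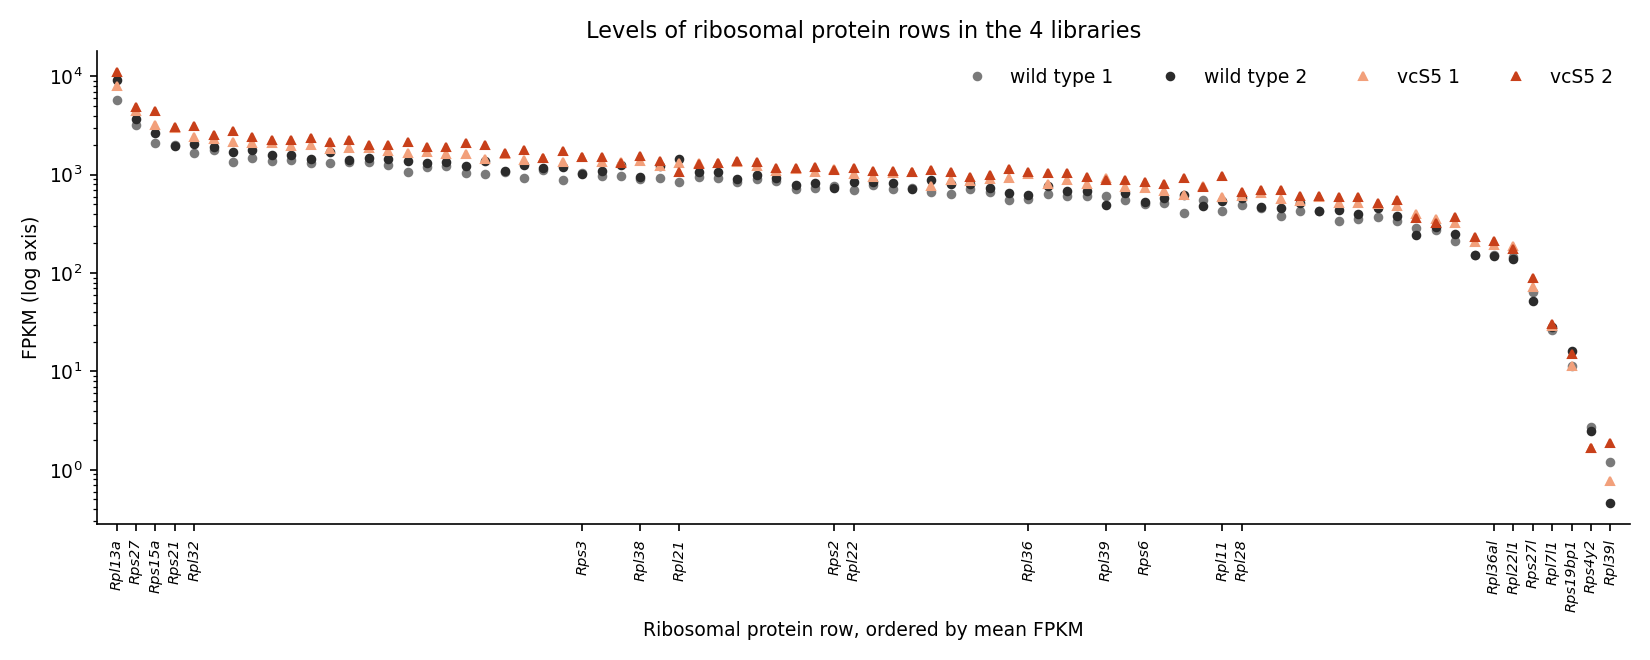
FPKM (log axis) of 78 of the ribosomal protein rows, ordered by mean FPKM, with 1 marker per library (circles for wild type, triangles for vcS5) and names for some of the rows the text describes. Triangles lie above circles in most rows from Rpl13a, with 5809 to 11001 FPKM, down to the paralogs, and the last few rows fall below 100 FPKM.

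The 5 most abundant rows were Rpl13a, Rps27, Rps15a, Rps21 and Rpl32. Rpl13a, a large-subunit protein that also silences selected messages after interferon gamma, was at 5809 and 9227 FPKM in wild type, against 8016 and 11001 FPKM in vcS5, so its groups overlapped. That row merges Rpl13a with the predicted gene Gm45713. Rps27, a zinc finger protein of the small subunit, was at 3213 and 3651 FPKM in the wild-type libraries and at 4442 and 4902 FPKM in those of vcS5. Rps15a was at 2123 and 2666 FPKM in wild type, against 3190 and 4482 FPKM in vcS5. Rps21 was at 1991 and 1965 FPKM in the wild-type libraries and at 2968 and 3067 FPKM in those of vcS5. Rpl32 was at 1662 and 2033 FPKM in wild type, against 2418 and 3122 FPKM in vcS5. For the latter 4 small- and large-subunit genes, both vcS5 libraries lay above both wild-type libraries.

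The levels of most ribosomal protein rows were higher in vcS5 than in wild type by a similar proportion, while no single row passed the test. The median difference over the 79 was 0.47 on the log2(FPKM + 1) scale (quartiles 0.39 and 0.58), a median ratio of mean FPKM of 1.39, and the median over all 14226 rows was 0.001 (quartiles -0.28 and 0.24). The difference was positive in 77 of the 79 rows. With quantile normalization the median was 0.275, with 75 of 79 positive and 47 of the 79 smaller by over 1.5 times. Both vcS5 libraries lay above both wild-type libraries in 71 of the 79, against 26.9% of all rows and 35.0% of rows with a mean of at least 100 FPKM. Both lay below in 1 row, Rps4y2, against 27.5% of all rows. In the other 7 rows, Rpl5, Rpl13a, Rpl21, Rpl27a, Rpl39l, Rpl41 and Rps19bp1, the groups overlapped. In a suspension of mixed cells, more message per cell and a different mix of cells cannot be told apart.

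By limma with Benjamini-Hochberg adjustment over all rows at a threshold of 0.05, 0 of the 79 were called higher and 0 lower, while 4.59% of all rows were called higher and 4.13% lower, and 5.83% of rows with at least 100 FPKM were called higher. The lowest adjusted p of a ribosomal protein row was 0.0616, and 2 rows were under 0.10. At an unadjusted limma p under 0.05, 28 of the 79 were higher and 0 lower, against 12.1% higher and 13.1% lower of all rows and 17.5% higher of rows with at least 100 FPKM. In the authors' deposited table, 26 of the 79 had a q under 0.05 and a higher vcS5 level and 0 a lower one, against 5.31% higher and 6.14% lower of all rows and 9.49% higher of rows with at least 100 FPKM. Moderated standard errors of the log2 difference ran from 0.131 to 0.410 over the 79, with a median of 0.20 beside the median difference of 0.47.

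**Figure D2:**
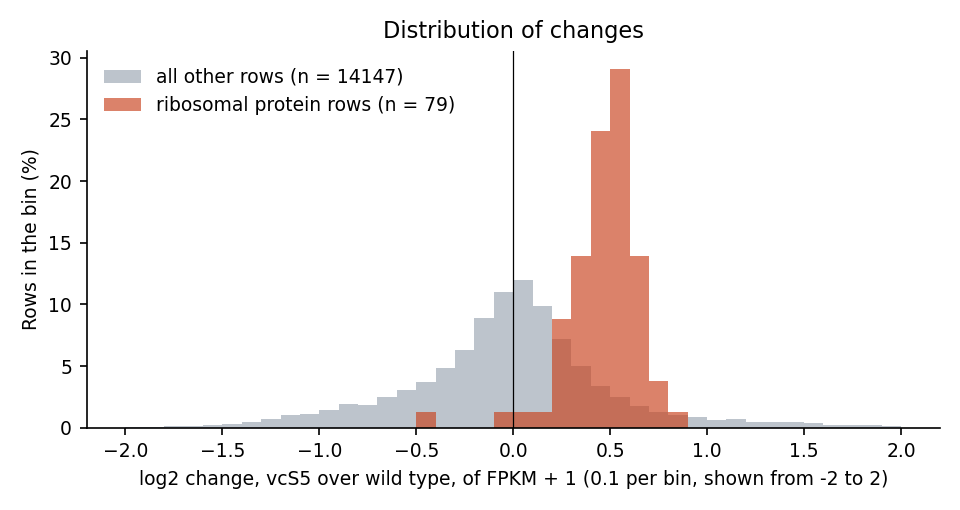
Histogram of the log2 difference in FPKM + 1, vcS5 over wild type, as the percentage of rows per bin of 0.1, for the 79 ribosomal protein rows and the 14147 other rows, shown from -2 to 2. The ribosomal protein rows form a narrow peak around their median of 0.47, and the other rows spread to both sides of 0.

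The differences of the ribosomal protein rows lay close together. Their interquartile range was 0.192 on the log2 scale, against 0.632 for the 990 other rows with at least 100 FPKM and 0.516 for all rows. Within 0.2 of their own median lay 64 of the 79, and within 0.2 of theirs 5914 of all 14226 rows. The ratio of mean FPKM lay between 1.2 and 1.8 in 70 of the 79. Across the 79, Spearman's rho of the difference was 0.262 with the mean level and 0.077 with the length of the longest annotated transcript, values that come from the same 4 libraries and describe genes, not replicates.

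Libraries of the same group also differed in the level of the whole set. The median log2 ratio over the 79 was 0.17 for wild-type replicate 2 over replicate 1 (66 of 79 positive) and 0.18 for vcS5 replicate 2 over replicate 1 (66 positive). Between groups, vcS5 replicate 1 over wild-type replicate 1 gave 0.47 (76 positive) and vcS5 replicate 2 over wild-type replicate 1 gave 0.66 (78 positive). Against wild-type replicate 2, vcS5 replicate 1 gave 0.29 (72 positive) and vcS5 replicate 2 gave 0.49 (76 positive). All 4 ratios between groups were thus larger than both ratios within a group. The medians over all rows for the same 6 pairs of libraries ran from -0.048 to 0.046.

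**Figure D3:**
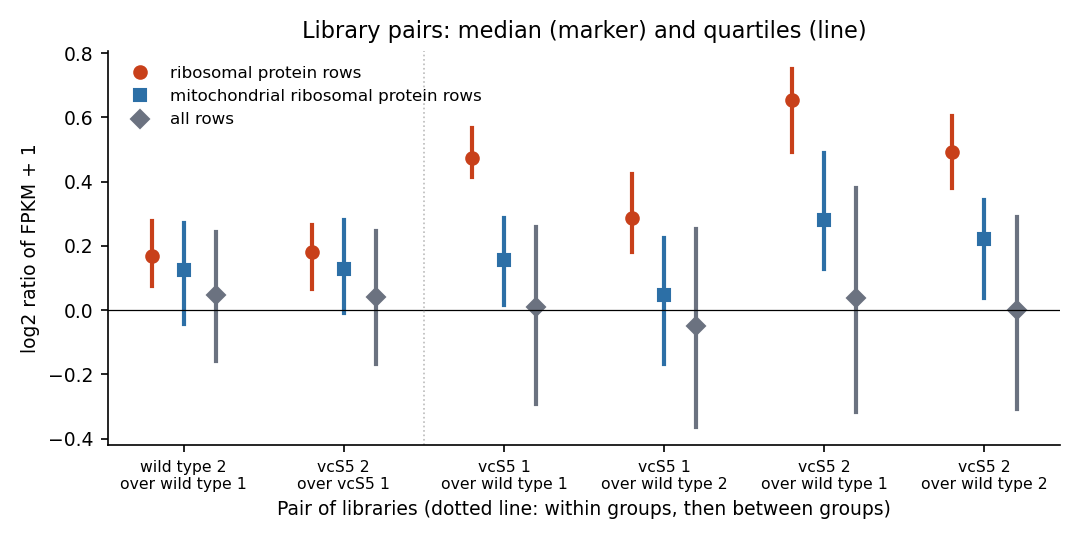
Median (marker) and quartiles (line) of the log2 ratio of FPKM + 1 for each of the 6 pairs of libraries, for ribosomal protein rows, mitochondrial ribosomal protein rows and all rows, with the within-group pairs left of the dotted line. For the ribosomal protein rows the within-group medians are 0.17 and 0.18 and the between-group medians run from 0.29 to 0.66.

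As a share of all FPKM in a library, the 79 rows took 5.08% and 5.54% in wild type (5.31% ± 0.321, SD, n = 2), against 7.86% and 9.28% in vcS5 (8.57% ± 1.00, SD, n = 2). The vcS5 shares did not overlap the wild-type shares and were 1.61 times as large on average. That ratio joined a numerator that was larger and a remainder that was smaller. The summed FPKM of the 79 averaged 75005 in wild type and 105294 in vcS5, a ratio of 1.40, and that of all other rows averaged 1334524 and 1124324, a ratio of 0.842. The 10 most abundant rows of the table took 51.1% and 49.6% of all FPKM in wild type and 42.9% and 36.3% in vcS5. With these 10 left out of the sum, the ribosomal protein share was 10.4% and 10.99% in wild type, against 13.8% and 14.6% in vcS5, a ratio of 1.32. The share thus depended on what it was measured against, while both vcS5 libraries lay above both wild-type libraries each way. Mitochondrial chromosome rows took 31.7% and 31.1% in wild type, against 27.8% and 27.7% in vcS5, and without them the ribosomal protein share was 7.44% and 8.04% in wild type, against 10.9% and 12.8% in vcS5.

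**Figure D4:**
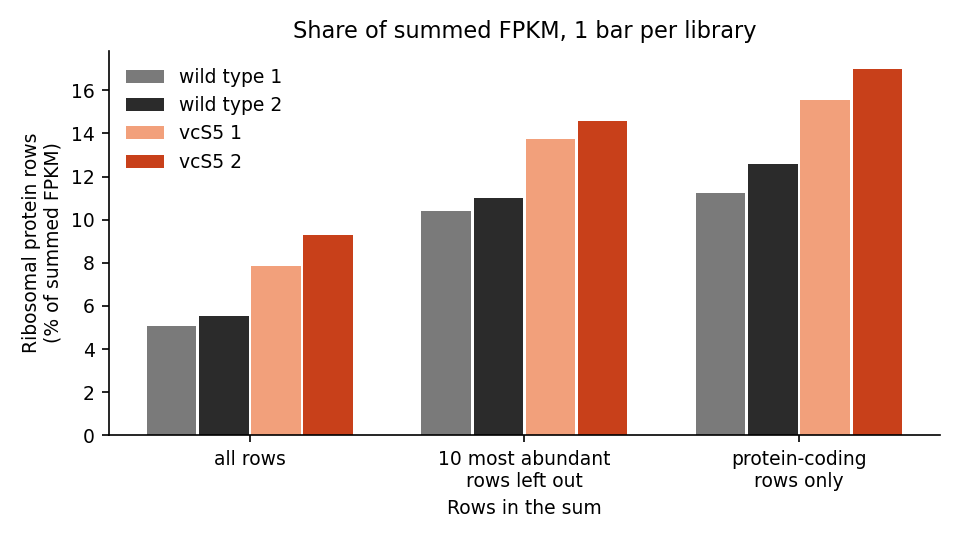
Bars, 1 per library, give the percentage of summed FPKM taken by the ribosomal protein rows, with the sum over all rows, without the 10 most abundant rows or over protein-coding rows only. In each of these sums both vcS5 libraries lie above both wild-type libraries, at 7.86% and 9.28% against 5.08% and 5.54% over all rows.

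The 46 Rpl rows had a median log2 difference of 0.47, positive in 46, with both vcS5 libraries above both wild-type libraries in 40. The 33 Rps rows had a median of 0.48, positive in 31, with no overlap upwards in 31. No overlap upwards was found in 26.9% of all rows and in 35.0% of rows with at least 100 FPKM. At an unadjusted limma p under 0.05, 16 Rpl rows and 12 Rps rows were higher. The share was 12.1% over all rows and 17.5% over rows with at least 100 FPKM. By a q under 0.05, taken from the authors' deposited table, the rows with a higher level numbered 15 (Rpl) and 11 (Rps). By that q the share was 5.31% over all rows and 9.49% over rows with at least 100 FPKM. The ratio of summed Rpl to summed Rps FPKM was 1.04 and 1.15 in wild type, against 1.02 and 1.07 in vcS5, so the groups overlapped. No test between the subunits was made.

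Because no row was called, genes with some of the largest differences are given as values, chosen after these were seen. Rpl36 (ENSMUSG00000057863, chr17:56613395-56614243 of mm10, plus strand), a small protein on the large subunit, was at 561 and 621 FPKM in the wild-type libraries and at 1007 and 1059 FPKM in those of vcS5. Its groups did not overlap, and the difference was 0.81 on the log2 scale (SE 0.183), 1.75-fold, with a limma adjusted p of 0.0616 and a q of 0.000995 in the authors' deposited table. Rps10, which sits on the head of the small subunit, was at 554.8 and 659 FPKM in wild type, against 917 and 1151 FPKM in vcS5. Its log2 difference was 0.76 (SE 0.218), 1.70-fold, with a limma adjusted p of 0.105. Rpl39, a very short protein that lines the exit tunnel of the large subunit, was at 614 and 493 FPKM in the wild-type libraries and at 935 and 879 FPKM in those of vcS5. Its log2 difference was 0.72 (SE 0.20), 1.64-fold, with a limma adjusted p of 0.0990. In these 3 genes the gap between groups was wider than the gap within either group. Rps18 lay between Rps10 and Rpl39 by log2 difference, at 0.73 (SE 0.242, limma adjusted p 0.144). It was at 1040 and 1214 FPKM in wild type, against 1636 and 2116 FPKM in vcS5. For Rps18 the gap within vcS5 was wider than the gap between groups.

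A second set of small-subunit genes stood out by how close the libraries of a group lay to each other, again chosen after the values were seen. Rps2, which lies near the entry of the messenger RNA channel, was at 774 and 741 FPKM in wild type, against 1136 and 1129 FPKM in vcS5, 1.49-fold (limma adjusted p 0.130). Rps3, which lines the same entry and also has roles in DNA repair, was at 1038 and 1008 FPKM in the wild-type libraries and at 1522 and 1516 FPKM in those of vcS5, 1.49-fold (limma adjusted p 0.152). Rps13 was at 733 and 715 FPKM in wild type, against 1074 and 1065 FPKM in vcS5, 1.48-fold (limma adjusted p 0.134). The test shares its estimate of spread between rows of like level, so small gaps within groups did not by themselves give small adjusted p-values.

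At the other end, Rpl21 was at 853 and 1434 FPKM in the wild-type libraries and at 1318 and 1063 FPKM in those of vcS5. Its log2 difference was 0.10 (SE 0.316), with fully overlapping groups. Rpl41, the shortest ribosomal protein, was at 935 and 1229 FPKM in wild type, against 1221 and 1367 FPKM in vcS5, and Rpl27a at 672 and 884 FPKM in the wild-type libraries and at 766 and 1120 FPKM in those of vcS5. Both had a ratio near 1.2 and overlapping groups. Rpl26 and Rpl28, both of the large subunit, had a log2 difference of 0.24 without overlap. Rpl28 was at 497 and 584 FPKM in wild type, against 605 and 668 FPKM in vcS5. No test set these genes against the rest of the set.

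The 16 ribosomal proteins listed for known roles beyond the ribosome or known disease links had a median log2 difference of 0.46, with 0 called by limma. At an unadjusted limma p under 0.05, 3 were higher, against 12.1% of all rows and 17.5% of rows with at least 100 FPKM. In 14 both vcS5 libraries lay above both wild-type libraries, against 26.9% of all rows and 35.0% of rows with at least 100 FPKM. Rpl5 and Rpl11 form the 5S particle that can bind and block MDM2, the brake on p53. Rpl5 was at 413 and 619 FPKM in the wild-type libraries and at 617 and 927 FPKM in those of vcS5, so that wild-type replicate 2 and vcS5 replicate 1 coincided, and its log2 difference of 0.58 was 0.29 without wild-type replicate 1 or without vcS5 replicate 2. Rpl11 was at 432 and 538 FPKM in wild type, against 598 and 979 FPKM in vcS5, a log2 difference of 0.67 (SE 0.294, limma adjusted p 0.242) that was 0.31 without vcS5 replicate 2 and 1.02 without vcS5 replicate 1. Rps6, the substrate of S6 kinase, was at 499 and 525 FPKM in the wild-type libraries and at 733 and 845 FPKM in those of vcS5, a log2 difference of 0.62 (SE 0.182, limma adjusted p 0.111). Rpl38, known from the translation of homeobox messages, was at 896 and 952 FPKM in wild type, against 1377 and 1534 FPKM in vcS5, a log2 difference of 0.65 (SE 0.199, limma adjusted p 0.121).

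Rpl22, needed in the mouse for the development of alpha beta T cells, was at 701 and 838 FPKM in the wild-type libraries and at 1013 and 1166 FPKM in those of vcS5, a log2 difference of 0.50 (SE 0.208, limma adjusted p 0.216). Its paralog Rpl22l1 was at 147 and 138 FPKM in wild type, against 187 and 177 FPKM in vcS5, a log2 difference of 0.35 (limma adjusted p 0.209). Neither passed the test, and in both genes the groups did not overlap. Genes mutated in Diamond-Blackfan anaemia, an inherited failure of red cell production, had log2 differences of 0.59 for Rps19, 0.48 for Rps24, 0.44 for Rpl35a and 0.35 for Rps26. Rps14, lost in the 5q- syndrome, had 0.42 and Rpl10, mutated in some T cell leukaemias, 0.33. All 6 of these had positive differences without overlap, as was found in 71 of the 79. The share was 26.9% of all rows and 35.0% of rows with at least 100 FPKM. None of the 6 log2 differences passed the limma test. With quantile normalization the values were smaller, at 0.15 for Rps24, 0.096 for Rps14 and 0.07 for both Rps26 and Rpl10.

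The least abundant rows were not typical ribosomal proteins. Rps4y2 was at 2.71 and 2.49 FPKM in the wild-type libraries and at 1.69 and 1.65 FPKM in those of vcS5, a log2 difference of -0.43 (SE 0.182, limma adjusted p 0.226). The identifier of that row belongs to Rps4l, a processed pseudogene of Rps4 in GENCODE vM21, and it is the only one of the 79 not annotated as protein coding. Rpl39l, a copy of Rpl39 best known from the testis, was at 1.19 and 0.462 FPKM in wild type, against 0.774 and 1.88 FPKM in vcS5. Rps19bp1, which the naming rule takes in, is a binding partner of RPS19 and not a ribosomal protein, and was at 11.3 and 16.3 FPKM in the wild-type libraries and at 11.3 and 15.03 FPKM in those of vcS5. Rpl7l1, a paralog of Rpl7 that acts in ribosome assembly, was at 26.6 and 28.0 FPKM in wild type, against 28.7 and 30.4 FPKM in vcS5. Among the other paralogs, Rps27l was at 64.7 and 51.8 FPKM in the wild-type libraries and at 72.8 and 88.5 FPKM in those of vcS5, and Rpl36al at 154 and 151 FPKM in wild type, against 191 and 210 FPKM in vcS5. Without Rps19bp1 and the 6 paralog rows, 72 rows were left, of which 72 had a positive difference, with a median of 0.51. In 67 of them there was no overlap upwards, against 26.9% of all rows and 35.0% of rows with at least 100 FPKM. Those 7 rows were set apart after their values were seen.

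Some rows could not be assigned cleanly. The row named Rpl24 carries the Ensembl identifier of its neighbour Zbtb11. A further limit is that 34 of the 79 rows share their locus with another row of the table. The 45 outside such loci had a median log2 difference of 0.47, with 40 above without overlap, and the 34 had 0.52 with 31. Above without overlap were 26.9% of all rows and 35.0% of rows with at least 100 FPKM. Reads of processed pseudogene copies, which ribosomal protein genes have in large numbers, may also be split or shared in ways the FPKM values do not show.

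Features of the genes that the rule did not use did not separate the differences by more than 0.1. The 29 genes with the C and T run at the start had a median log2 difference of 0.47 and the 30 with a shorter run 0.52. A gene with several annotated starts was placed by its longest run, as for Rpl35a with runs of 4, 13 and 1. The run was read only at annotated starts, so a shorter run does not show that the message lacks the TOP motif. With CCGGAAG in the window the median was 0.47 (24 genes), and without it 0.52 (35 genes). In 27 of the 79 genes the annotation places a total of 53 small nucleolar RNA genes, which guide the modification of ribosomal RNA and are mostly cut from introns. Their median was 0.52, against 0.47 in the 52 without. The 79 genes lie on 19 chromosomes, and their longest annotated transcripts had a median length of 1094 bases (383 to 5179).

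Of 8 symbols of ribosomal proteins with other names, 6 were in the table, and their differences were positive, 5 of them without overlap between the groups. Without overlap upwards were 26.9% of all rows and 35.0% of rows with at least 100 FPKM. Of the 6, 0 were called by limma and 4 were higher at an unadjusted p under 0.05. At that p, 12.1% of all rows and 17.5% of rows with at least 100 FPKM were higher. The 6 had a median log2 difference of 0.67 (quartiles 0.65 and 0.70). Rplp1, part of the stalk that recruits elongation factors, was at 1890.1 and 1829 FPKM in the wild-type libraries and at 3122 and 3113 FPKM in those of vcS5, a log2 difference of 0.75 (limma adjusted p 0.123). Rpsa, the laminin receptor homologue of the small subunit, was at 1212 and 1223 FPKM in wild type, against 1830.4 and 2071 FPKM in vcS5. Fau, a fusion of a ubiquitin-like protein with Rps30, was at 877 and 996 FPKM in the wild-type libraries and at 946 and 1075 FPKM in those of vcS5 and was the 1 of the 6 with overlapping groups.

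Other parts of the translation machinery had smaller differences, given here as lists that share some genes with each other. Other TOP messages, such as elongation factors, had a median log2 difference of 0.34 over 17 rows (0 called by limma, 4 higher and 0 lower at an unadjusted p under 0.05, against 12.1% higher of all rows). Of these 17, 13 had no overlap upwards, against 26.9% of all rows. Among them, Eef1a1 was at 3598 and 4604 FPKM in wild type, against 4628 and 5625 FPKM in vcS5. Translation initiation factors had a median of 0.17 over 31 rows (0 called, 4 higher and 0 lower at an unadjusted p under 0.05, a share close to the 12.1% of all rows). Eif4a2, a paralog of the initiation helicase Eif4a1, was at 1460.5 and 1990 FPKM in the wild-type libraries and at 1193 and 1240 FPKM in those of vcS5, a log2 difference of -0.49 (SE 0.245, limma adjusted p 0.296). The mitochondrial ribosomal proteins, 78 rows that serve the ribosome of the mitochondrion, had a median of 0.20, with 1 called higher, 36 without overlap upwards and 4 downwards, against 26.9% and 27.5% of all rows. Gas5, a noncoding host of small nucleolar RNAs with a TOP start, was at 1374 and 1977 FPKM in wild type, against 1286 and 3818 FPKM in vcS5.

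Of the 186 rows in these lists, 6 (3.23%) were called higher by limma, a share below the 4.59% called higher over all rows. Genes of ribosome assembly and ribosomal RNA synthesis had a median log2 difference of 0.28 over 36 rows. At an unadjusted limma p under 0.05, 10 were higher and 0 lower, against 12.1% and 13.1% of all rows. In 23 both vcS5 libraries lay above both wild-type libraries, against 26.9% of all rows. By limma adjusted p, 1 was called. This was Bysl, an assembly factor of the small subunit, at 12.3 and 11.7 FPKM in the wild-type libraries and at 21.0 and 23.6 FPKM in those of vcS5 (log2 difference 0.84, limma adjusted p 0.0301). Among 14 genes of mTOR, S6 kinase and MYC control the median was -0.001, and Rptor, the scaffold of mTOR complex 1, was called, at 11.3 and 12.8 FPKM in wild type, against 22.5 and 30.4 FPKM in vcS5 (log2 difference 1.06, limma adjusted p 0.0351). The 9 genes of the 5S particle, MDM2 and p53 axis had a median log2 difference of 0.39, with 6 positive and 3 negative. Mdm2, Ccng1, Bax and Sesn2 were among those not called. The 3 called higher are targets of p53. These were the death gene Bbc3 (log2 difference 2.15, limma adjusted p 0.00885), the kinase inhibitor Cdkn1a (1.16, limma adjusted p 0.0188) and Zmat3 (1.02, limma adjusted p 0.0376). Bbc3 was at 4.27 and 5.93 FPKM in the wild-type libraries and at 23.2 and 28.8 FPKM in those of vcS5. The sixth was Mrpl18 of the mitochondrial ribosome, with a log2 difference of 0.73 (limma adjusted p 0.0403) and a q of 0.587 in the authors' deposited table. When any 1 of the 4 libraries was left out, 0 or 1 call of these lists passed.

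**Figure D5:**
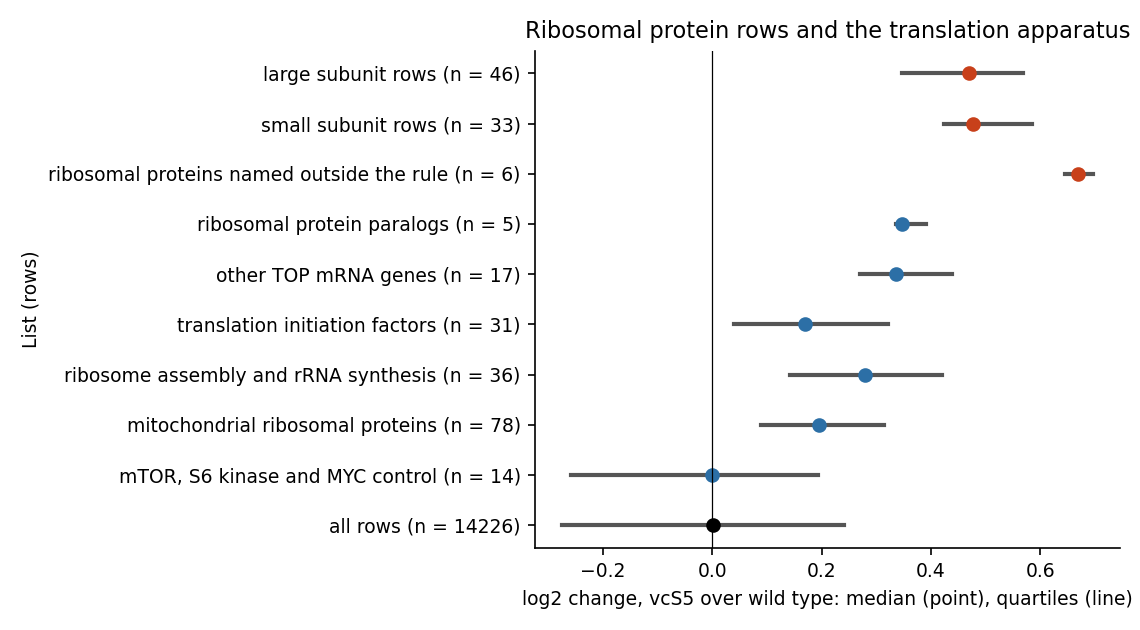
Median (point) and quartiles (line) of the log2 difference in FPKM + 1, vcS5 over wild type, for large-subunit and small-subunit rows, for other lists of the translation machinery and for all rows, with the number of rows in each. Medians run from 0.67 for ribosomal proteins with other names to -0.001 for mTOR, S6 kinase and MYC control, with 0.47 and 0.48 for the subunits.

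The make-up of the suspension differed between the same libraries. Summed FPKM of 10 pan T cell marker genes was 843 and 1146 in wild type, against 2294 and 3066 in vcS5, with 6 of 10 called higher by limma, and all 4 CD8 T cell markers were called higher. For B cells, 10 of 11 marker rows were called lower, and their sum was 3343 and 4064 FPKM in wild type, against 1411 and 1353 FPKM in vcS5. Of 8 natural killer cell marker rows 4 were called higher and 1 lower (228 and 219 FPKM summed in wild type, 650 and 617 in vcS5). Nkg7, which is also in the CD8 list, carried most of that difference, and without it the sums were 152 and 148 FPKM in wild type, against 267 and 221 FPKM in vcS5. Ncr1, the receptor NKp46 of natural killer cells, was the row called lower, at 13.7 and 15.1 FPKM in wild type, against 0.635 and 0.776 FPKM in vcS5. Neutrophil markers summed to 6222 and 1877 FPKM in the wild-type libraries and to 1016 and 981 FPKM in those of vcS5. By limma 1 of 10 was called lower, and all 10 had a negative difference (median -1.60). At an unadjusted limma p under 0.05, 7 were lower, against 13.1% of all rows. In 9 both vcS5 libraries lay below both wild-type libraries, against 27.5% of all rows. Plasma cell markers had 2 of 7 called lower (1265 and 854 FPKM in wild type, 719 and 519 in vcS5), macrophage and monocyte markers 1 of 8 higher (111 to 138 FPKM in wild type, 124 and 147 in vcS5) and erythroid markers 0 of 10 called (1216 and 1702 FPKM in wild type, 611 and 1828 in vcS5). Of the 8 macrophage and monocyte rows, 7 had a negative difference, and the median log2 difference was -0.27. The 1 called higher was Ccr2, with a log2 difference of 1.79. All 10 erythroid rows had a negative difference, with a median of -0.50 on the log2 scale. In 2 of these 10 both vcS5 libraries lay below both wild-type libraries, against 27.5% of all rows. No marker was at 0 in any of these lists. Their part in the higher ribosomal protein levels was not tested.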

How the data were processed

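Total RNA from flash-frozen spleen suspensions was made into TruSeq RNA v2 libraries, which do not mark strand, and read as 50 bp single-end reads, per the labels' protocols. The authors deposited 1 table of FPKM per library, with a p-value and a q-value of their own comparison, per the file headers. The submitters' processing notes name build mm10, the aligners TopHat2 2.0.9 and Bowtie2 2.1.0, and for quantification Cuffdiff 2.1.1 with Cufflinks. FPKM hold no read numbers, so depth is unknown and no counting interval is given. Summed FPKM were 1349925 and 1469133 in the wild-type libraries, against 1239862 and 1219374 in vcS5.

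Values were transformed as log2(FPKM + 1), which understates folds of low rows. limma 3.58.1 in R 4.3.3 was fitted to all 14226 rows and 4 libraries with a variance trend and no covariate, as a two-sided test at a Benjamini-Hochberg adjusted p of 0.05 (residual degrees of freedom 2, prior 3.17). A filter at a mean FPKM of 1 removed 0 rows. Folds are ratios of mean FPKM. The script was tested on simulated data. Gene positions in mm10 and biotypes come from the table and GENCODE vM21, and promoter sequences from RefSeq.

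The members and the lists were chosen with earlier results of these data known, so lists are described by counts and medians with no test. Genes are named by a rule: members called by limma (none), the 5 most and 5 least abundant, paralogs, known extra roles, and of each other list the called or the most abundant members. Further names were chosen after their values were seen, as stated. Alternatives changed the pseudocount, filter, scaling, variance trend, replicate block, libraries, rows counted and denominator of the share. Protein features were not used here. A gene that the rule names is not reported here, though it is in the counts and medians.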

Additional observations from a re-analysis of the deposited data

How the results depend on the processing

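Of 162 alternative values of the comparison results, 139 kept their call or stayed within 1.5 times or 1 SD (0.104 on the log2 scale for medians), and 23 moved. Of 489 for single genes and list medians, 462 were unchanged and 6 reversed. A single gene that stayed uncalled with the same sign counted as unchanged, whatever the size of its difference. Rpl10 counted so at 0.07 with quantile normalization against 0.328, and Rpl13a at 0.025 without wild-type replicate 1 against 0.359. For single genes the count thus describes calls and signs, not sizes.

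Ribosomal protein rows called higher numbered 0 in the reported fit, 1 without the variance trend (Rpl36, large subunit), 1 with scaling on all but the 10 most abundant rows (again Rpl36) and 26 by the authors' deposited q (15 large, 11 small). With the replicate number as a block, limma called 2, 1 large (Rpl36, adjusted p 0.0416) and 1 small (Rps10, 0.0443). In that fit 65 of the 79 were higher at an unadjusted p under 0.05. The share of all rows at that p in the block fit is not given here, so the 65 has no background to be read against. The labels do not pair same-numbered libraries, whose deviations correlated at r = 0.176 over 14226 rows. That r does not describe the 79, of which 66 were higher in replicate 2 than in replicate 1 within each group. Their median log2 ratio was 0.17 in wild type and 0.18 in vcS5, against 0.046 and 0.041 over all rows.

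Quantile normalization lowered the median log2 difference from 0.472 to 0.275 (large 0.306, small 0.251) and turned that of Rpl21 to -0.148, and 1 row of the other translation lists was then called lower. Scaling on all but the 10 most abundant rows gave 0.386, with all rows at -0.076.

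Leaving out each library in turn, which leaves 1 group with a single sample assumed to vary like the other group, gave medians of 0.384 to 0.574 (large 0.378 to 0.577) and 1 to 6 rows at an unadjusted p under 0.05 against 28. Differences shrank by over 1.5 times in 17 of 79 rows without wild-type replicate 1 and in 9 without vcS5 replicate 2, and grew so in 6 without wild-type replicate 2 and in 5 without vcS5 replicate 1. Calls higher in the other lists were 0 to 1, against 6. Differences ran from -0.277 to 0.473 for Rpl21 (-0.057 without vcS5 replicate 1), -0.011 to 0.686 for Rpl39l and -0.304 to 0.19 for Rps19bp1 (0.136 without vcS5 replicate 1).

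The share was higher in vcS5 by 3.257 percentage points, by 4.369 over protein-coding rows and by 1.672 for members outside merged or shared loci. With the 10 most abundant rows left out it was 3.459, 4.037 with the 6 genes of other names and 1.772 outside such loci. The cause of each shift was not tested beyond the rows each choice leaves out.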
